A study of Homo sapiens with 12 samples.

Results

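The miR-29 family strands are the mature microRNAs cut from the hairpins MIR29A, MIR29B1, MIR29B2 and MIR29C. They were taken as every microRNA of the tables whose name begins with hsa-miR-29a-, hsa-miR-29b- or hsa-miR-29c-, whichever arm or copy. This gave 7 strands of the 952 microRNAs listed, of which 6 were in both tables and 1, miR-29a-5p, was in the ZSWIM8 table alone. The cells were K562, an established human leukaemia line with erythroid features, and their small RNA was sequenced in 12 libraries, 3 in each of 4 groups.

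Cells that had received a guide RNA against CYRANO (sgCYRANO) were set against cells that had received a non-targeting guide (sgNT). Cells with the genotype ZSWIM8-/- (ZSWIM8 KO) were set against the wild type line (WT), and both of these received no guide. The submitters describe the libraries as biological triplicates of each line, and the sources used here do not say whether a line was 1 clone. CYRANO, annotated as OIP5-AS1, is a long non-coding RNA that triggers the loss of miR-7. ZSWIM8 is the part of a ubiquitin ligase that recognises an Argonaute protein engaged in such loss.

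MicroRNAs of the miR-29 family are loaded into Argonaute proteins and guide them to messenger RNAs through their seed, the bases near the 5′ end. They are known as repressors of collagens and other matrix genes, of the DNA methyltransferases DNMT3A and DNMT3B, and of the survival factor MCL1. In target-directed microRNA decay a target RNA pairs with the seed and again, after a short gap, with the 3′ end of the microRNA, and the Argonaute protein is then degraded and the microRNA lost. For miR-29b such a target is known from fish and mouse, the RNA called libra in zebrafish and Nrep in mouse.

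The 3p strands are shown first because the decay target tells them apart by their 3′ ends. The capitals mark the seed, bases 2 to 8 counted from 1 at the 5′ end, and the sequences are RefSeq's, in build GRCh38.p14, in which all 7 strands were found.
hsa-miR-29a-3p: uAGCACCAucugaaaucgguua
hsa-miR-29b-3p: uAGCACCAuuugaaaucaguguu
hsa-miR-29c-3p: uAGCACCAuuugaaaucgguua

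All 3 share the seed AGCACCA, and among the 2370 mature microRNAs of that table they were the 3 that carry it. The strands miR-29a-3p and miR-29c-3p were identical at 21 of 22 positions, with the single substitution C10U from miR-29a-3p to miR-29c-3p. From miR-29a-3p to miR-29b-3p there were 4 substitutions, C10U, G18A, U21G and A22U, and miR-29b-3p has 1 further base at its 3′ end. Reads of miR-29a-3p and miR-29c-3p can thus be told apart by 1 base, and the sources used here do not say how reads that match both were counted, so the split between them is uncertain.

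The annotated human NREP transcripts were searched on their own strand for TGGTGCT, the reverse complement of the seed, and 5 of 23 held it, among them NREP-202 with 1 match. The match lay in the 3′ UTR, within chromosome 5, positions 111730359 to 111730381 of GRCh38 on the - strand. The site is printed from the transcript's strand, and the capitals mark the stretch that pairs with the 3′ end of miR-29b-3p and then the seed match, with 3 bases between them.
NREP site: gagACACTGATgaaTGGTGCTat

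The upstream stretch was complementary to bases 15 to 22 of miR-29b-3p, a run of 8. For miR-29a-3p and miR-29c-3p the longest such run upstream of the seed match was 3 bases each. Only Watson-Crick pairs were counted. Where miR-29b-3p pairs, base 18 of miR-29a-3p and miR-29c-3p is a G that faces a T. Counting such a G to U pair would lengthen their run, but not past base 20, since their bases U21 and A22 face C and A. The contrast would then be smaller, and the lengths of 8 and 3 hold for Watson-Crick pairs alone. The letters TGGTGCT are common, present in 27.6% of the 22053 annotated transcripts of 0.8 to 1.2 times the length of NREP-202. CYRANO's longest annotated transcript, OIP5-AS1-201, also held 1 match, and 55.9% of the 2596 annotated transcripts of like length held at least 1. Neither NREP nor CYRANO RNA is measured by these tables.

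The opposite arms give a second readout of the same hairpins, and their seeds, again in capitals, differ from one another.
hsa-miR-29a-5p: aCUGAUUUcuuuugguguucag
hsa-miR-29b-1-5p: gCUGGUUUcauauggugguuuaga
hsa-miR-29b-2-5p: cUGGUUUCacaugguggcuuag
hsa-miR-29c-5p: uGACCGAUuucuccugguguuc

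The hairpins form a pair of clusters, both on the - strand. MIR29A (chromosome 7, 130876747 to 130876810 of GRCh38.p14) and MIR29B1 (130877459 to 130877539) lie 648 bases apart, and MIR29B1 lies wholly within exon 4 of the long non-coding transcript LINC-PINT-202, which MIR29A overlaps by 2 bases. MIR29C (chromosome 1, 207801852 to 207801939) and MIR29B2 (207802443 to 207802523) lie 503 bases apart, both within exon 5 of the host transcript MIR29B2CHG-203. The sequence of miR-29b-3p is the same in MIR29B1 and MIR29B2, so its reads cannot be assigned to 1 cluster. By contrast, miR-29b-1-5p and miR-29b-2-5p each report on 1 hairpin. The sources used here do not say whether reads that match both copies were summed, split or dropped. The level of miR-29b-3p and its ratios to other strands carry that uncertainty.

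The files are edgeR comparisons that the authors deposited, with 837 microRNAs in the CYRANO table and 868 in the ZSWIM8 table. From their columns the mean of each group was recovered in counts per 1000000 reads (CPM), without values of single libraries. The headers name no numerator, and the perturbed line, named second in each table, was taken as the numerator. If that is turned, the means given for a comparison belong to the opposite groups. Under this reading miR-7-5p was higher in sgCYRANO and in ZSWIM8 KO, the direction known for loss of CYRANO. Library totals read from the smallest steps of the means ran from 1670000 to 1850000 reads in sgCYRANO, 1540000 to 2300000 in sgNT, 2090000 to 2490000 in ZSWIM8 KO and 860000 to 1850000 in WT. Erythroid microRNAs fitted the K562 label, with all 6 of 6 listed and summing to 13611 to 16624 CPM in the 4 groups. Most of each sum was miR-486-5p, at 12031 CPM in sgCYRANO, 11701 in sgNT, 13387 in ZSWIM8 KO and 14449 in WT. The epithelial list, 4 of 5 listed, summed to 87.2 to 149.6 CPM, the hepatocyte microRNA miR-122-5p stood at 0.954 to 2.08 CPM and the muscle microRNA miR-1-3p at 0.748 to 1.31 CPM. Of the lymphoid list, miR-142-3p and miR-142-5p, which are found across blood cells, made up nearly all of the 3278 to 3679 CPM, and the lymphocyte microRNA miR-155-5p was at 0.180 CPM in sgCYRANO, under the limit of 0.567 CPM that 3 reads set, and 0.899 CPM in sgNT. Of these lists 0 microRNAs passed an adjusted p of 0.05 in sgCYRANO and 1 fell in ZSWIM8 KO, the erythroid miR-486-3p. Over all microRNAs 0.119% passed in sgCYRANO, and 4.72% were higher and 5.18% lower in ZSWIM8 KO. The lists are too short to set against these shares. The epithelial miR-375-3p stood at 49.2 CPM in ZSWIM8 KO and 3.70 CPM in WT (edgeR adjusted p = 0.201), and its part in the results was not tested.

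hsa-miR-29a-3p was the main strand of the family in every group, and the family as a whole was scarce. Its group means were 408 CPM in sgCYRANO, 470.4 CPM in sgNT, 382 CPM in ZSWIM8 KO and 299.7 CPM in WT, and it ranked 80 of 837 and 90 of 868 by abundance. It held 93.2% of the CPM of the 3p strands in sgCYRANO, 92.8% in sgNT, 92.3% in ZSWIM8 KO and 92.2% in WT. The 2 tables were scaled separately, and levels of the first pair of groups are set beside those of the second as a description.

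hsa-miR-29b-3p, the strand with the decay target, stood at 24.3 CPM in sgCYRANO, 27.1 CPM in sgNT, 25.1 CPM in ZSWIM8 KO and 18.3 CPM in WT. WT was the lowest of the 4 means, and the other 3 lay within 3 CPM of one another. miR-29a-3p was 16.8 times as abundant as miR-29b-3p in sgCYRANO, 17.4 times in sgNT, 15.2 times in ZSWIM8 KO and 16.4 times in WT. At these depths the means of miR-29b-3p rest on about 128 reads in sgCYRANO, 149 in sgNT, 177 in ZSWIM8 KO and 70 in WT.

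hsa-miR-29c-3p had 5.65 CPM in sgCYRANO, 9.58 CPM in sgNT, 6.61 CPM in ZSWIM8 KO and 6.97 CPM in WT, resting on about 30 reads in sgCYRANO, 53 in sgNT, 47 in ZSWIM8 KO and 27 in WT. Here sgNT was the high group and the remaining 3 lay close together. Its opposite arm miR-29c-5p had 6.24 CPM in sgCYRANO, 6.22 CPM in sgNT, 6.85 CPM in ZSWIM8 KO and 7.64 CPM in WT. The 3p to 5p ratio of MIR29C was 0.906 in sgCYRANO, 1.54 in sgNT, 0.966 in ZSWIM8 KO and 0.913 in WT, so the 3p strand had the higher mean in sgNT and the 5p strand in the other 3 groups.

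miR-29b-1-5p stood at 5.14 CPM in sgCYRANO, 3.79 CPM in sgNT, 3.35 CPM in ZSWIM8 KO and 6.07 CPM in WT. miR-29b-2-5p stood at 2.47 CPM in sgCYRANO, 2.21 CPM in sgNT, 1.76 CPM in ZSWIM8 KO and 2.05 CPM in WT. The MIR29B1 copy gave 67.5% of the sum of both in sgCYRANO, 63.2% in sgNT, 65.5% in ZSWIM8 KO and 74.8% in WT. Set against that sum, miR-29b-3p was 3.19 times as abundant in sgCYRANO, 4.51 times in sgNT, 4.91 times in ZSWIM8 KO and 2.25 times in WT. The means of miR-29b-1-5p rest on about 27 reads in sgCYRANO, 21 in sgNT, 24 in ZSWIM8 KO and 23 in WT. Those of miR-29b-2-5p rest on about 13, 12, 12 and 8 reads in the same order, so these shares and ratios are imprecise. miR-29a-5p, the opposite arm of the most abundant member, was at the limit of detection, at 0.403 CPM in ZSWIM8 KO and 0.387 CPM in WT. These means equal 3 reads in all in ZSWIM8 KO and 1 read in the shallowest WT library, and both lie under the limits that 3 reads per group set, 0.425 CPM in ZSWIM8 KO and 0.788 CPM in WT.

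In all 4 groups miR-29a-3p was highest and miR-29b-3p second. Their Poisson 95% intervals, set on approximate reads and covering counting error only, did not overlap each other or those of the next strand. Below them miR-29c-3p, miR-29c-5p and miR-29b-1-5p followed in an order that changed between groups, and each overlapped its neighbour in that order. miR-29b-2-5p was sixth in every group, and its interval overlapped that of miR-29b-1-5p. The reads are approximate because each mean averages libraries of unequal depth. For miR-29b-3p in WT they could number from 48 to 101, a range that the intervals leave out.

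**Figure D1:**
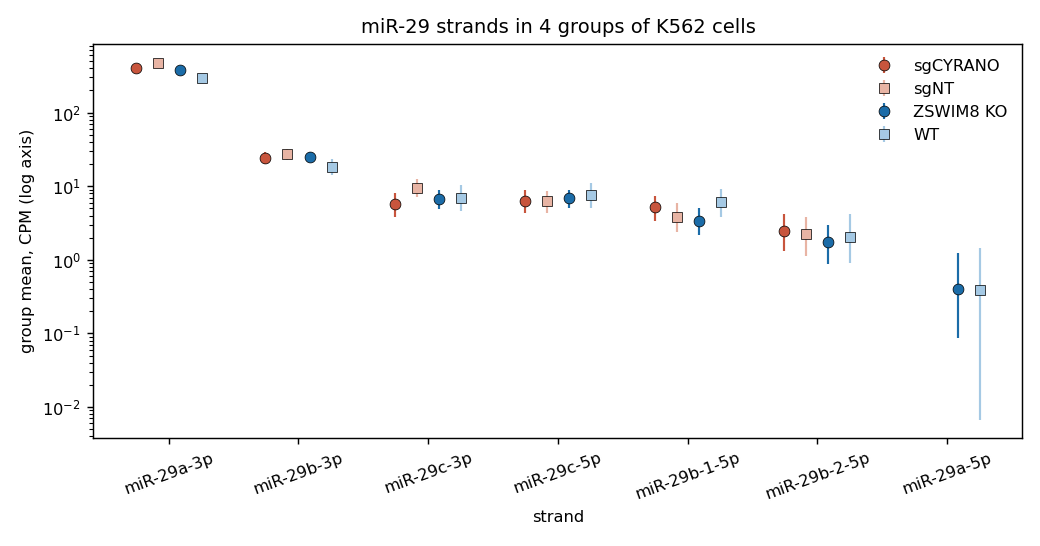
Group mean of each miR-29 strand in CPM (log axis) in sgCYRANO, sgNT, ZSWIM8 KO and WT, each a mean of 3 libraries. Bars are Poisson 95% intervals of the counting error, set on approximate reads. miR-29a-3p lies between 299.7 and 470.4 CPM, miR-29b-3p between 18.3 and 27.1 CPM, and the other strands under 10 CPM.

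The first comparison asked whether other microRNAs differ in cells with a guide against the miR-7 decay target, whose level was not measured. No miR-29 strand passed the test in sgCYRANO, and the 3p strands all had values below 0. In the authors' deposited table, miR-29a-3p had a log2 fold change of -0.20 ± 0.11 (standard error implied by the deposited p), with an adjusted p of 0.876 (edgeR quasi-likelihood test). miR-29b-3p had -0.16 ± 0.23 in the authors' deposited table (edgeR adjusted p = 0.984). The 95% interval of miR-29b-3p ran from 0.655-fold to 1.23-fold.

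miR-29c-3p had the lowest value of the family here, -0.75 ± 0.43 in the authors' deposited table, or 0.595-fold, with an edgeR adjusted p of 0.890 and a 95% interval from 0.333-fold to 1.06-fold. The 5p strands lay at or above 0. In the authors' deposited table miR-29b-1-5p had 0.43 ± 0.55, miR-29b-2-5p 0.15 ± 0.73 and miR-29c-5p 0.01 ± 0.46. In all, 0 of 6 strands passed an adjusted p of 0.05, where 0.119% of all microRNAs did (1 of 837, miR-7-5p), and 0 of 6 had an unadjusted edgeR p under 0.05, where 5.85% of all did. The median log2 fold change of the 6 was -0.08, against 0.01 over all 837.

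The second comparison addressed the ligase receptor that target-directed decay needs. No miR-29 strand passed here either, and both miR-29a-3p and miR-29b-3p had values above 0. miR-29b-3p had 0.45 ± 0.34 in the authors' deposited table, or 1.37-fold, and its edgeR adjusted p was 0.510. Its 95% interval ran from 0.862-fold to 2.17-fold, so neither no change nor a doubling lies outside it.

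The strand miR-29a-3p lacks the Watson-Crick run of 8 at the NREP site. Its log2 fold change in the authors' deposited table was 0.35 ± 0.14, or 1.27-fold (edgeR p = 0.0149, adjusted p = 0.106). Among microRNAs at 10 CPM or more alone, its adjusted edgeR p was 0.0458. Relative to the median change of those microRNAs, which was 0.13 on the log2 scale in this comparison, its log2 fold change was 0.22 with an adjusted p of 0.438, and with both steps together the adjusted p was 0.242. The call of miR-29a-3p in this comparison therefore rests on leaving out the scarce microRNAs and leaving the scaling as deposited.

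miR-29c-3p had -0.08 ± 0.45 in the authors' deposited table and was the 1 3p strand not above 0. The 5p strands gave, in the authors' deposited table, -0.84 ± 0.54 for miR-29b-1-5p, -0.20 ± 0.80 for miR-29b-2-5p, -0.16 ± 0.45 for miR-29c-5p and 0.04 ± 1.55 for miR-29a-5p. The value of miR-29a-5p, from 3 reads against 1, carries no information on direction. In all, 0 of 7 strands passed, where 9.91% of all microRNAs did (86 of 868, with 4.72% higher and 5.18% lower), and 1 of 7, miR-29a-3p, had an unadjusted edgeR p under 0.05, where 19.8% of all did. The median log2 fold change of the 7 was -0.08, against 0.08 over all 868.

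**Figure D2:**
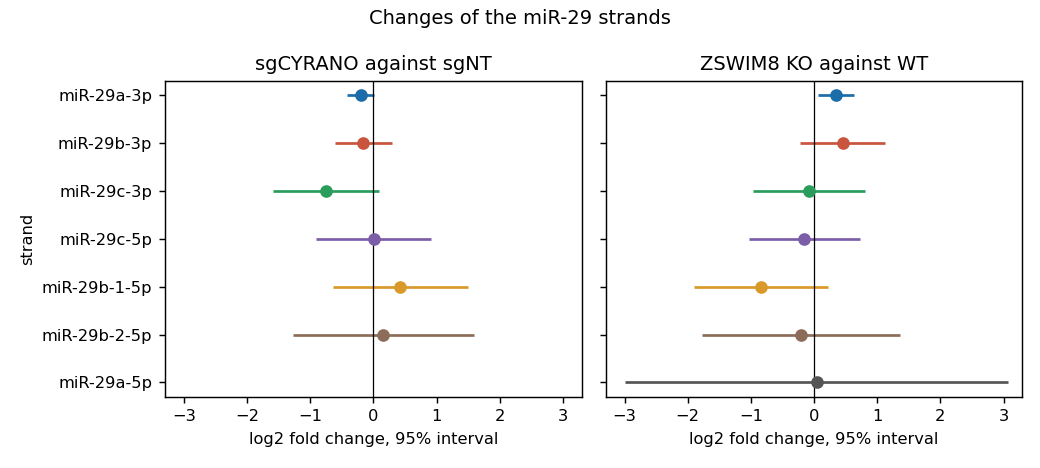
Log2 fold change of each miR-29 strand in the authors' deposited tables, sgCYRANO over sgNT on the left and ZSWIM8 KO over WT on the right, with 95% intervals implied by the deposited p-values. The interval of miR-29a-3p is the narrowest in both panels and in ZSWIM8 KO lies above 0, from 0.07 to 0.63.

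**Figure D3:**
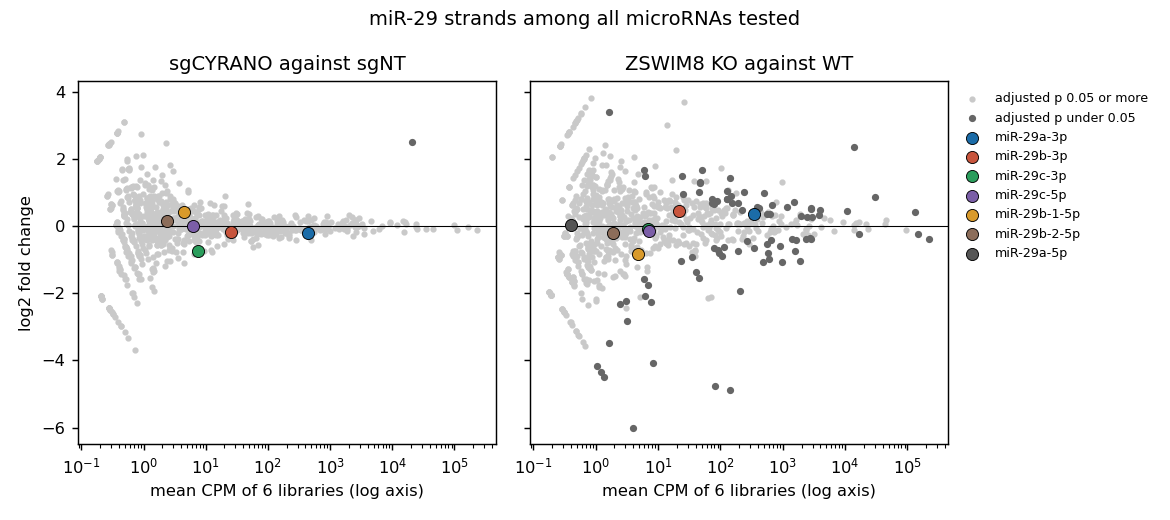
Log2 fold change against the mean CPM of 6 libraries (log axis) for all microRNAs of each comparison, with the miR-29 strands coloured and microRNAs past an adjusted p of 0.05 in dark grey. No miR-29 strand is among those past the threshold, and miR-29c-3p on the left, at -0.75, lies at the lower edge of the microRNAs of its level.

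The changes of miR-29a-3p and miR-29b-3p were close in both comparisons. The log2 fold change of miR-29b-3p minus that of miR-29a-3p was 0.05 ± 0.26 in sgCYRANO, with a 95% interval from -0.45 to 0.55. In ZSWIM8 KO the same difference was 0.10 ± 0.37, with an interval from -0.62 to 0.82. These errors take the strands as independent, though both come from the same libraries. The strand with the Watson-Crick run of 8 thus did not separate from the strand without it at this depth. The intervals do not show that they act alike. miR-29c-3p lay lower than both, by 0.54 ± 0.44 below miR-29a-3p in sgCYRANO and by 0.43 ± 0.48 in ZSWIM8 KO, each within 2 standard errors of 0.

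Both arms of a hairpin come from 1 precursor, whereas target-directed decay acts on the strand that Argonaute holds, so the arms were set against each other. In ZSWIM8 KO, miR-29b-3p changed by 1.29 ± 0.64 more than miR-29b-1-5p on the log2 scale (normal test of the difference, unadjusted p = 0.0435, adjusted p = 0.350 over 209 arm pairs). The difference came from both sides, with miR-29b-3p above 0 and miR-29b-1-5p below, and it did not pass the adjustment. Against miR-29b-2-5p the difference was 0.65 ± 0.87 (adjusted p = 0.912). Since miR-29b-3p can come from both hairpins, neither pair is a comparison within 1 hairpin alone.

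For MIR29C, where both arms come from 1 hairpin, the 3p strand changed by 0.08 ± 0.64 more than the 5p strand in ZSWIM8 KO (normal test, adjusted p = 0.988). For MIR29A the difference was 0.31 ± 1.55, an error set by the 4 reads of miR-29a-5p. In sgCYRANO the 3p minus 5p differences were -0.59 ± 0.59 for miR-29b-3p over miR-29b-1-5p, -0.31 ± 0.77 over miR-29b-2-5p and -0.75 ± 0.63 for miR-29c-3p over miR-29c-5p, with adjusted p-values of 0.969, 0.981 and 0.969 over 201 pairs (normal test). None of the 7 miR-29 arm differences passed, where 0.498% of all pairs passed in sgCYRANO and 5.26% in ZSWIM8 KO. At an unadjusted p under 0.05 by the same test, 1 of the 7 did, where 3.98% and 12.4% of all pairs did.

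The change of miR-29a-3p in ZSWIM8 KO was above its change in sgCYRANO. The change in ZSWIM8 KO minus the change in sgCYRANO was 0.55 ± 0.18 on the log2 scale, with a 95% interval from 0.20 to 0.91 (normal test, adjusted p = 0.0359 over the 753 microRNAs in both tables). In the same test 6.64% of all microRNAs passed, 50 of 753, with 3.72% higher, and miR-29a-3p was the 44th of them by p. With each comparison taken relative to its own median change the difference was 0.40 with an adjusted p of 0.205, so the call rests on the scaling as deposited.

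The other 3p strands had differences of like size with wider errors. For miR-29b-3p it was 0.61 ± 0.41 (normal test, adjusted p = 0.551), and for miR-29c-3p 0.67 ± 0.62 (adjusted p = 0.746). The 5p strands lay on the other side of 0, with -1.26 ± 0.77 for miR-29b-1-5p (adjusted p = 0.458), -0.36 ± 1.09 for miR-29b-2-5p (adjusted p = 0.930) and -0.16 ± 0.64 for miR-29c-5p (adjusted p = 0.942). Hence 1 of 6 strands passed this test. The tables share no library, and the lines also differ in whether they received a guide, which cannot be told apart from the genes targeted.

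**Figure D4:**
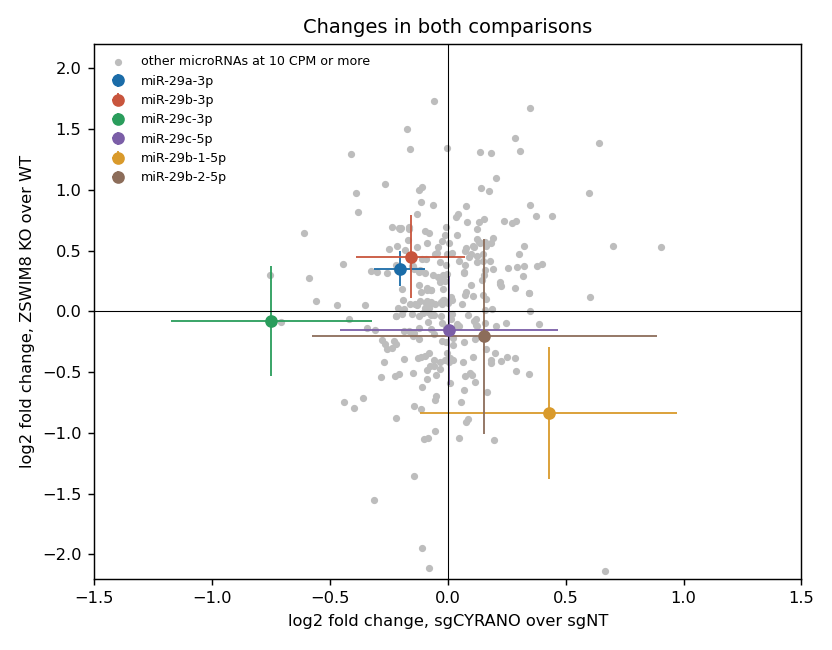
Log2 fold change in ZSWIM8 KO over WT against that in sgCYRANO over sgNT for the 294 microRNAs at 10 CPM or more in both tables, of which 4 lie outside the axes, and for the 6 miR-29 strands in both, with standard errors. miR-29a-3p (0.35 in ZSWIM8 KO and -0.20 in sgCYRANO) and miR-29b-3p (0.45 in ZSWIM8 KO and -0.16 in sgCYRANO) lie beside each other, and miR-29b-1-5p lies on the opposite side of both axes.

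The errors above follow abundance and not the scatter of each strand. The standard error from the deposited F was between 0.964 and 1.01 times the median of the 51 microRNAs of nearest abundance for every strand in both comparisons. For 5 of 6 strands in sgCYRANO and 2 of 7 in ZSWIM8 KO the deposited p equalled, within 0.1%, the p of a Poisson comparison of the summed CPM taken as counts. The sums were thus tested as if each library held 1000000 reads, where the totals above were mostly larger. Across all microRNAs the same held for 60.1% of the first table and 23.6% of the second, mainly under 10 CPM. Read from F without that bound, the unadjusted p of miR-29c-3p in sgCYRANO was 0.0305 in place of 0.0798. Its adjusted p from F was then 0.566, so it did not pass.

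**Figure D5:**
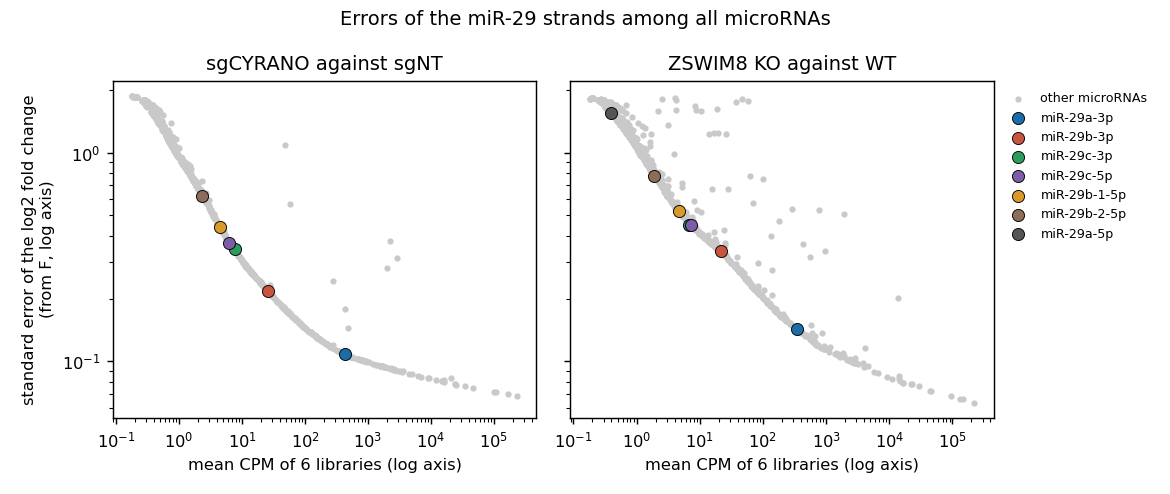
Standard error of the log2 fold change, taken from the deposited F (log axis), against the mean CPM of 6 libraries (log axis) for all microRNAs of both comparisons. The miR-29 strands lie on the common curve, at 0.964 to 1.01 times the median of their neighbours, while some other microRNAs lie far above it.

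Of 6 endogenous decay substrates 4 were listed, and in ZSWIM8 KO 1 rose, 2 fell and miR-29b-3p did not pass. At the same threshold 4.72% of all microRNAs were higher and 5.18% lower, and 4 members are too few to set against these shares. The 2 that fell come from 1 cluster and are not independent. miR-7-5p, the microRNA that CYRANO directs to decay, stood at 23494 CPM in ZSWIM8 KO and 4617 CPM in WT, with 2.35 ± 0.14 in the authors' deposited table. miR-221-3p and miR-222-3p, for which the mRNA of the cell death gene BCL2L11 is known as a decay target, were lower, with miR-221-3p at 5.76 CPM in ZSWIM8 KO and 159.8 CPM in WT and miR-222-3p at 9.10 CPM in ZSWIM8 KO and 270.7 CPM in WT. Their log2 fold changes in the authors' deposited table were -4.76 ± 0.48 (miR-221-3p) and -4.88 ± 0.58 (miR-222-3p), a direction opposite to that of miR-7-5p. Their opposite arms, looked up after these values were seen, also fell. miR-221-5p stood at 0.805 CPM in ZSWIM8 KO and 15.5 CPM in WT, with -4.07 in the authors' deposited table (edgeR adjusted p = 7.83e-09). miR-222-5p was at 0 CPM in ZSWIM8 KO and 2.41 CPM in WT (edgeR adjusted p = 0.0214). In sgCYRANO 3 of the 4 failed the test and miR-7-5p rose, by 2.52 ± 0.09 in the authors' deposited table. Of all microRNAs there, 0.119% passed. The median log2 fold change over the 4 was -0.17 in sgCYRANO and -2.16 in ZSWIM8 KO, where over all microRNAs it was 0.01 and 0.08. Of 4 microRNAs that viral RNAs are known to degrade, 2 were listed, and neither miR-17-5p (0.13 ± 0.08) nor miR-20a-5p (-0.09 ± 0.08 in the authors' deposited table) passed in ZSWIM8 KO.

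The microRNAs whose pair of log2 fold changes lay nearest to a 3p strand were named among 294 at 10 CPM or more, over both comparisons. For miR-29b-3p they were miR-148a-3p at a distance of 0.05, miR-148b-3p at 0.06 and miR-493-5p at 0.07. For miR-29a-3p they were miR-331-5p at 0.01, miR-3909 at 0.04 and miR-502-3p at 0.06. For miR-29c-3p they were miR-624-5p at 0.04, miR-651-5p at 0.25 and miR-499a-5p at 0.31. With 2 comparisons behind each distance, and errors of all 3 strands larger than their distances, the order is a description of these tables.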

How the data were processed

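Per the labels' protocols, libraries were made from K562 RNA with a NEBNext kit for small RNA, 3 for sgCYRANO, sgNT, ZSWIM8 KO and WT each. STAR, featureCounts, edgeR and the build hg19 are named in the submitters' processing notes, with no parameters. The deposited columns, from edgeR per the file headers, are a log2 fold change, a mean log2 CPM, an F statistic (a score), a p-value and an adjusted p-value. The design's fits to counts per library (replicate block, left-out replicates, DESeq2) were not run, since the tables hold comparisons.

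Group means were recovered with prior counts of 2 (mean) and 0.125 (fold change) and libraries of 1000000, and summed to 1000000 in all 4 groups. The deposited adjusted p-values equal, to 1.09e-06 or better, those from all rows of each table by Benjamini and Hochberg. One read adds a fixed CPM to a group mean, and 3 such steps per group accounted for all 227, 220, 208 and 241 values above 0 and under 1 CPM in sgCYRANO, sgNT, ZSWIM8 KO and WT within 0.0015 CPM. Reads behind a mean are the mean times the group total, so 3 reads set limits for counting error only. Each standard error is the size of the log2 fold change divided by the normal deviate that its p implies. Differences were tested against the normal distribution, adjusted in the same way. The error of a difference is the root of both squared errors summed. For strands or arms within a comparison this leaves out any correlation from their shared libraries. These procedures were run on simulated data. The simulated p-values were built from the spread and depths that made the counts, so they do not test the errors implied by the deposited p-values. Named microRNAs are the members, the lists of decay substrates and the 3 nearest patterns per 3p strand by rule. MicroRNAs of the cell type marker lists and the opposite arms of miR-221-3p and miR-222-3p are named outside that rule, with their values seen. The members and lists were chosen with earlier results of these data known. Annotation is GENCODE 29 and RefSeq, in GRCh38, used for names, sequences and positions only, since the files hold no coordinates. Python 3.11.15 with scipy 1.17.1 was used.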

Additional observations from a re-analysis of the deposited data

How the results depend on the processing

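No paired analysis was possible because the tables hold no values of single libraries, which also kept left-out replicates and DESeq2 from being run. Among the alternatives, only centring moves a log2 fold change or a difference. The filters and the other readings of p or of the errors reuse the main value, so its direction could not change there. Most adjusted p-values of the strands were also far above the threshold, so few were placed to change side. Of 93 values of miR-29 strands under alternatives, 89 kept their direction and side of the threshold, a count that says little about robustness. The exceptions were the call of miR-29a-3p at 10 CPM or more in ZSWIM8 KO, its lost difference between the comparisons after centring (both given above), and miR-29a-5p in ZSWIM8 KO, which turned to -0.086 and -0.11 on the log2 scale after centring on the median and on a trimmed mean, and rests on 4 reads. With F read at 4 denominator degrees of freedom, 3 of 868 microRNAs were called in ZSWIM8 KO in place of 86, and the adjusted p of miR-29a-3p was 0.476. Centring on the median gave 92 calls there, 30 of them higher and 62 lower. As deposited, 41 were higher and 45 lower. A filter at 10 CPM gave 102 calls, with 62 higher and 40 lower. In sgCYRANO, 2 arm differences passed in place of 1 at 10 CPM or more and with errors from F. Reading p from F without the counting bound, and the joint filter and centring, were chosen after seeing the data. Depth limits the 5p strands and miR-29c-3p, with 53 reads or fewer per group.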
